A study of Mus musculus with 6 samples.

Results

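The genes described here lie on mouse chromosome 17 between 25 and 37 Mb and surround, or lie among, the H2 genes, without being H2 genes themselves. They were chosen by position and by a summed expression count of 30 or more over the 6 libraries. H2 genes, ribosomal protein genes, the Nduf and Uqcr respiratory chain genes, predicted genes with Gm numbers and 15 single genes were left out by name. The rule kept 211 genes of 267 in the interval with that many reads, of 590 genes in the interval and of 51826 in the table. These 211 genes are the members, of which 205 are protein coding and 6 are not. Notch3 with 31 reads and Ager with 34 were just inside the minimum, and Rsph1 with 28 and Hspa1a with 29 were just outside, the latter being left out by name as well.

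The mouse major histocompatibility complex, called H2, holds the class I and class II genes that present peptides to T cells. Between its class II genes and most of its class I genes lies the class III region, a gene-dense stretch with complement genes, the tumour necrosis factor cluster and many housekeeping genes for RNA handling, chromatin and protein folding. The flanks hold further housekeeping genes, zinc finger genes and kinase genes such as Mapk14 and Pim1.

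The cells were CD34-negative KSL cells, that is, Kit-positive, Sca-1-positive and lineage-negative cells, a bone marrow population rich in haematopoietic stem cells. RNA-seq compared 2 libraries from wild-type (WT) mice with 4 from Elovl6 knockout (KO) mice, which lack the enzyme that elongates saturated and monounsaturated fatty acids such as palmitate. Strain, age, sex, the deleted part of Elovl6, pooling of animals and any treatment are not given in the labels used here. The labels do not say that libraries came from separate animals, so a p-value measures the spread between these libraries, which may be technical.

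The expression counts summed to between 2121240 and 5137628 per library, lowest in KO replicates 4 and 3, and the 211 genes held between 1.68% and 1.87% of them. Elovl6 itself had 111 and 147 reads in WT and 106, 61, 56 and 18 in KO, or 30.6 and 38.3 CPM (reads scaled to a common library total) against 21.4, 12.7, 19.5 and 8.81 CPM. Every KO library was below both WT libraries but none was near 0, with a log2 fold change of -1.12 (SE 0.32, edgeR adjusted p = 0.346). Whether these reads lie outside the deleted part could not be tested. All 10 markers of stem and KSL cells had reads in at least 1 library, and their summed level ranged from 2429 to 3528 CPM with no separation of WT from KO. Singly, Ly6a, which encodes Sca-1, had 64.69 and 75.02 CPM in WT and 49.42, 51.35, 49.92 and 33.28 CPM in KO. Every KO library was thus below both WT libraries for Ly6a. Hoxb5 went the other way in CPM, on only 1 and 0 reads in WT and 2, 5, 1 and 1 in KO. For the remaining markers in this list the WT and KO libraries overlapped. The 7 B-lineage markers summed to 852 CPM in KO replicate 1 and to between 115 and 293 CPM in the other 5 libraries. The 8 neutrophil and monocyte markers summed to 6548 CPM in KO replicate 4 and to between 185 and 1074 CPM in the others, and the erythroid markers found summed to 1062 CPM in KO replicate 4 and to between 39.4 and 197 CPM in the others. The T and NK markers summed to 12.9 and 14.3 CPM in WT and to between 16.9 and 25 CPM in KO, with Nkg7 giving most of this in each library. The megakaryocyte markers summed to between 134 and 143 CPM in WT and between 37.9 and 94.5 CPM in KO. In bulk RNA, fewer cells of a type and less RNA per cell cannot be told apart.

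The promoters of the 3 genes with the smallest p-values whose promoter was at hand are shown because these genes lead the KO against WT comparison, together with the promoter of Pi16, which has a low CpG count. Each is RefSeq sequence on build GRCm38.p6, from 250 bases before the gene's start to 50 bases after it, and capitals mark a match to a searched motif. Anks1 is at chr17:27909093-27909392 on the plus strand, Capn15 at chr17:25985747-25986046 on the minus strand, Scube3 at chr17:28142059-28142358 on the plus strand and Pi16 at chr17:29318632-29318931 on the plus strand.
Anks1: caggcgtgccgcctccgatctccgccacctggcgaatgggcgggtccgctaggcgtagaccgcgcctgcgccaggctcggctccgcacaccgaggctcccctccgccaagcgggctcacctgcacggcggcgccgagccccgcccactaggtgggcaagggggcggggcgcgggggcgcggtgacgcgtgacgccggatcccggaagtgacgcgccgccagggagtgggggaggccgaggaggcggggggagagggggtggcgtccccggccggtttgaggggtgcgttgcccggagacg
Capn15: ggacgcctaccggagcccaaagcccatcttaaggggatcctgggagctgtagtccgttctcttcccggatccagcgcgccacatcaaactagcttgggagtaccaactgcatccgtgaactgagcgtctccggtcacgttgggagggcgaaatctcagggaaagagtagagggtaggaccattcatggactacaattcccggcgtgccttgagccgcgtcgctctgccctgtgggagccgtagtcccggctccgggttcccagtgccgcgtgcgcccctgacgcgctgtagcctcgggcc
Scube3: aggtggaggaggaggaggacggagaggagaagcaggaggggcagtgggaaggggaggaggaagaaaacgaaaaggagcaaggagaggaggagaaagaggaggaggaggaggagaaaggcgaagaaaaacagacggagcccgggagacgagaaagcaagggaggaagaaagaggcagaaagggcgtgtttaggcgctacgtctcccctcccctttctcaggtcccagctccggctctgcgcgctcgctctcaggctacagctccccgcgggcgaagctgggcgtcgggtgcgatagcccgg
Pi16: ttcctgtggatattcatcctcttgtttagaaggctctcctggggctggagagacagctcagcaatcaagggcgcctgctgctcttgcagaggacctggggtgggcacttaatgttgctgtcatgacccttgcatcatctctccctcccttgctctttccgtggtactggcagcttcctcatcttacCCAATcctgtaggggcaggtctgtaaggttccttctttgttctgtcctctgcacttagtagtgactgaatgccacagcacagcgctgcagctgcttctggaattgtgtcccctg
The Anks1 promoter was 77.3% G and C with 42 CpG dinucleotides, and the Pi16 promoter was 53.3% G and C with 3. Of the 4, the Pi16 promoter alone held a searched motif, the CCAAT box shown in capitals. Over the 170 of 211 genes with a RefSeq promoter, the median was 59.7% G and C and 20.5 CpG, against 52.7% and 7 over all 27025 promoters. The 27025 had no minimum of reads, so here and for the motifs below they are not a like set. For the 170 genes the promoter nearest the gene's start was taken, and for all promoters the first listed for each symbol. On either strand, the AP-1 site TGANTCA was in 7.06% of the genes' promoters against 7.93% of all, and the cyclic AMP response element TGACGTCA in 3.53% against 1.88%. The CCAAT box, searched as CCAAT, was in 45.9% against 37.9%, and the TATA box, searched as TATAAA, in 7.06% against 14.2%. These motifs do not overlap in their letters, and a match describes letters, not a bound site.

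The question for the interval was whether genes beside the H2 genes differed between KO and WT, and where along it. None of the 202 genes tested passed the adjusted threshold of 0.05 in edgeR's quasi-likelihood test, against 0.159% of all 11969 genes tested. At an unadjusted p under 0.05 there were 24 (11.9%), against 9.90% of all genes. DESeq2 called 2 of the 202, Anks1 and Capn15, against 0.727% of all genes, and limma-voom called 0. With no filter on low counts edgeR called 6 of all 211 (2.84%), against 1.69% of the 18189 genes with any read. Those 18189 had no minimum of 30 reads, so they are not a like set. Of the 24, 14 were higher in KO (6.93%, against 5.67% of all genes) and 10 were lower (4.95%, against 4.23%). The minimum of 30 reads was summed over 2 WT and 4 KO libraries, so a gene could enter through KO alone. Among the 14, Pram1, Pi16, Grm4 and Sapcd1 had few WT reads and reached it mainly through KO. Among the 10, Tmprss3, Tcp11 and Aif1 held most of their reads in WT. The split turned with the libraries and the tool, with 5 higher and 9 lower without KO replicate 2, 7 and 11 without WT replicate 2, and 11 and 14 with limma-voom. At an unadjusted p under 0.01 there were 7 (3.47%, against 2.52%), and under 0.001 there was 1, Anks1. Without KO replicate 2 the 24 became 14 (7.07%), against 8.07% of all genes in that fit. These shares were near the background over all genes. Several interval genes were left out by name with their differences known, while none were left out of all genes. The nearness thus describes the genes kept, not the whole interval.

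The median log2 fold change of the 202 genes was 0.0060, with 104 above 0 and 98 below, and over all genes it was 0.0085. The median size of the log2 fold change, regardless of sign, was 0.19, against 0.22 over all genes, with a median SE of 0.25 for a single gene. In 42 genes (20.8%) every KO library lay beyond both WT libraries on one side, against 20.3% of all genes. Of these, 17 were above WT, against 10% of all genes, and 25 below, against 10.3%, which are 8.42% and 12.4% of the 202. The authors' deposited table has 1 of the 211 past an adjusted p of 0.05, Tmprss3, against 0.147% of the table. That share is over all 51826 genes, with no minimum of reads, so it is not a like set.

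**Figure D1:**
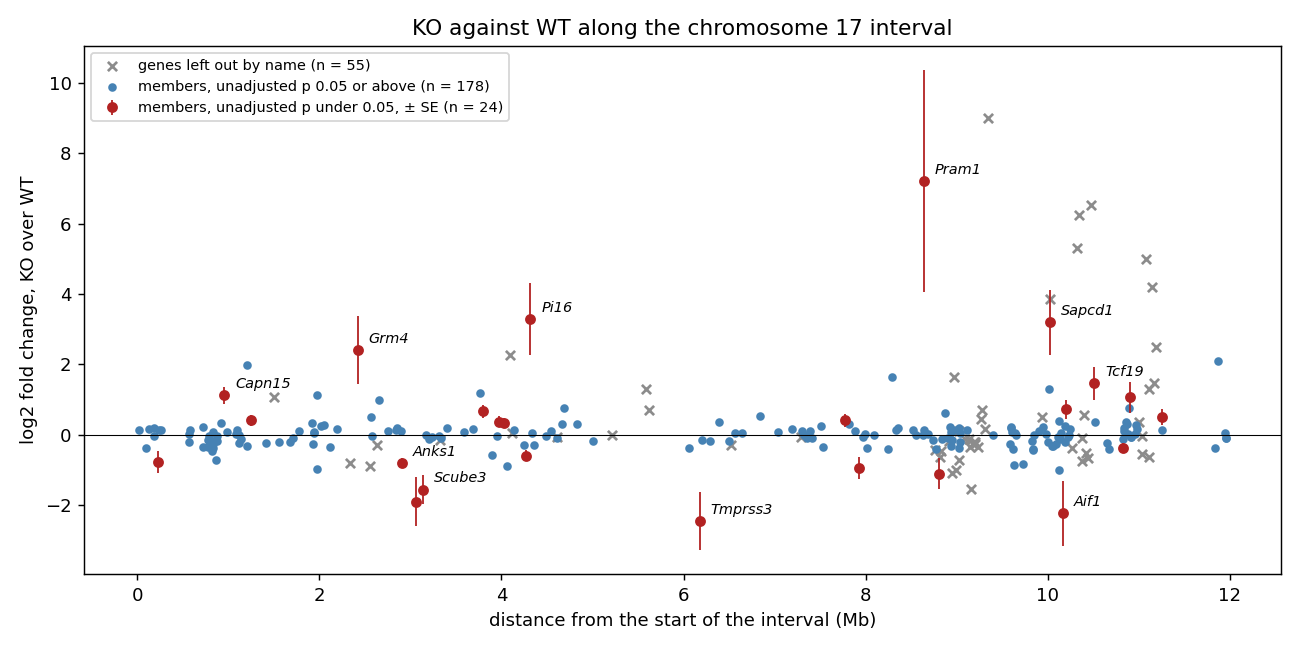
The log2 fold change of each of the 202 tested members (KO over WT, y axis) is plotted against the distance of its start from the start of the interval in Mb (x axis). Red points with SE bars are the 24 members at an unadjusted p under 0.05, 14 above and 10 below 0, and grey crosses are interval genes left out by name.

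Among the genes lower in KO, Anks1 had the smallest p of all 202. It encodes an ankyrin-repeat adaptor of receptor tyrosine kinase signalling and lies on the plus strand at chr17:27909340-28062600. Its level was 285 and 225 CPM in the WT libraries and 145, 137, 165 and 135 CPM in KO replicates 1 to 4. Every KO library was below both WT libraries, and the KO mean was 145 ± 13.5 CPM (SD, n = 4) against 255 ± 42.3 CPM (SD, n = 2). The log2 fold change was -0.81 (SE 0.15), with an adjusted p of 0.0947 in edgeR and 0.000794 in DESeq2. Over the alternatives it ranged from -0.97 to -0.63, and the adjusted p from 0.000385 to 0.617. Of its exon reads 79.9% were placed uniquely, and it overlaps Taf11 on the other strand.

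Scube3, which encodes a secreted signalling protein with EGF-like repeats, lies beyond Anks1 at chr17:28142316-28174852. It had 101 and 78 reads in WT and 21, 34, 35 and 20 in KO, or 27.8 and 20.3 CPM against 4.24, 7.10, 12.2 and 9.79 CPM. The groups did not overlap, and the log2 fold change was -1.56 (SE 0.40, edgeR adjusted p = 0.301). Between them lies Tcp11, a gene known for its expression in testis, with 20 and 18 reads in WT and 10, 8, 1 and 2 in KO and a log2 fold change of -1.91 (SE 0.70). Anks1, Tcp11 and Scube3, which follow in this order, were each below both WT libraries in all 4 KO libraries.

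Tmprss3, a transmembrane serine protease gene, had 26 and 17 reads in WT and 10, 4, 0 and 2 in KO. Its groups did not overlap at these low counts, and its log2 fold change was -2.46 (SE 0.83, edgeR adjusted p = 0.408). The authors' deposited table gives it a signed fold of -5.41 with an adjusted p of 0.0408. Cyp4f13, a cytochrome P450 gene, had 31.7 and 24.2 CPM in WT and 10.9, 20.5, 14.3 and 11.7 CPM in KO, again without overlap, with a log2 fold change of -0.95 (SE 0.31). Flot1, which encodes the membrane scaffold protein flotillin-1, had 164 and 162 CPM in WT and 115, 125, 130 and 131 CPM in KO. It had the highest read counts of these after Anks1, and its log2 fold change was -0.38 (SE 0.13, edgeR adjusted p = 0.417).

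Kank3, a gene for an ankyrin-repeat protein of the cytoskeleton, had 14.6 and 16.2 CPM in WT and 6.05, 7.72, 3.49 and 11.7 CPM in KO. Gnptg encodes a subunit of the enzyme that tags lysosomal proteins with mannose 6-phosphate. It had 22.8 and 25 CPM in WT and 13.1, 14.2, 19.2 and 8.81 CPM in KO. Aif1, a macrophage gene also called Iba1, had 18 and 17 reads in WT and 8, 8, 0 and 0 in KO. In all 3 genes the KO libraries lay below both WT libraries, and the log2 fold changes were -1.11 (SE 0.44), -0.78 (SE 0.31) and -2.24 (SE 0.93). That of Aif1 was -1.49 without KO replicates 3 and 4, which held 0 of its reads. KO replicate 4 had no Aif1 reads beside the highest summed neutrophil and monocyte markers. Trp53cor1, a long non-coding RNA gene next to Cdkn1a, had a log2 fold change of -0.89 (SE 0.40) and is not among the 24, since its unadjusted p was not under 0.05.

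Among the genes higher in KO, Capn15 had the smallest p. It encodes a calpain-type cysteine protease and lies on the minus strand at chr17:25958364-25985796. It had 82 and 54 reads in WT and 177, 168, 128 and 90 in KO, or 22.6 and 14.1 CPM against 35.7, 35.1, 44.7 and 44.0 CPM. The groups did not overlap, with means of 18.3 ± 6.02 CPM (SD, n = 2) and 39.9 ± 5.20 CPM (SD, n = 4). The log2 fold change was 1.12 (SE 0.25), with an adjusted p of 0.204 in edgeR and 0.0346 in DESeq2. Over the alternatives it ranged from 0.81 to 1.49, and its adjusted p from 0.0056 to 0.661. Only 51.5% of its exon reads were placed uniquely.

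Brpf3, which encodes a scaffold of histone acetyltransferase complexes, had 65.8 and 47.4 CPM in WT and 88.0, 83.9, 84.8 and 102 CPM in KO. Its groups did not overlap, and its log2 fold change was 0.66 (SE 0.19, edgeR adjusted p = 0.334), and 0.44 without WT replicate 2. Tnf, the tumour necrosis factor gene, had 14 and 11.7 CPM in WT and 21, 23.2, 18.8 and 21.5 CPM in KO. It too showed no overlap, with a log2 fold change of 0.72 (SE 0.27, edgeR adjusted p = 0.437). Luc7l, a gene of a splicing factor that binds the U1 particle, had 116 and 122 CPM in WT and 150, 167, 180 and 135 CPM in KO, without overlap and with a log2 fold change of 0.41 (SE 0.15). Srsf3, an SR-protein splicing factor gene, had 216 and 263 CPM in WT and 337, 297, 297 and 275 CPM in KO, also without overlap. Its log2 fold change was 0.33 (SE 0.14), and 48.5% of its exon reads were placed uniquely. Without WT replicate 1 and with total exon reads it was 0.20, with no unadjusted p under 0.05 in either.

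Several genes higher in KO rested on few reads or on single libraries. Pi16, which encodes a secreted peptidase inhibitor, had 4 and 2 reads in WT and 29, 24, 6 and 43 in KO, with a log2 fold change of 3.29 (SE 1.03). KO replicate 4 stood highest at 21 CPM against 5.85, 5.01 and 2.09 CPM in KO replicates 1 to 3. Grm4, a metabotropic glutamate receptor gene, had 6 and 0 reads in WT and 15, 22, 14 and 11 in KO. Atat1, which encodes the enzyme that acetylates alpha-tubulin, had 6.61 and 3.65 CPM in WT and 8.88, 10.4, 14 and 9.79 CPM in KO. Their log2 fold changes were 2.39 (SE 0.97) and 1.06 (SE 0.44), and in both genes every KO library was above both WT libraries. Without WT replicate 2 they were 1.40 and 0.69 and neither had an unadjusted p under 0.05, and without WT replicate 1 the WT library left had 0 Grm4 reads. Of Atat1's exon reads 47.7% were placed uniquely.

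Tcf19, a gene of a PHD-finger protein linked to the cell cycle, had 9.36 and 10.7 CPM in WT and 39.1, 10.2, 29.3 and 32.8 CPM in KO. KO replicate 2 lay between the WT libraries, so the groups overlapped, and the log2 fold change was 1.46 (SE 0.47, edgeR adjusted p = 0.390). KO replicate 1, highest for Tcf19, also had the highest B-lineage marker sum, and the part of this in the result was not tested.

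Apart from Sapcd1, described with its neighbours, the other 5 genes among the 24 are Trim39, which is its bin's highest by level, and 4 genes outside the naming rule, named after their values were seen. Stk38, a kinase gene, had 82.0 and 83.9 CPM in WT and 120, 109, 100 and 97.4 CPM in KO, without overlap. Zfp871 and Trim39 had log2 fold changes of 0.41 (SE 0.18) and 0.51 (SE 0.23), and the WT and KO libraries overlapped for Trim39. That of Trim39 was 0.85 without WT replicate 1 and 0.23 without WT replicate 2. BC004004 had 63.6 and 72.7 CPM in WT and 41.8, 42.6, 47.5 and 48.9 CPM in KO, with a log2 fold change of -0.60 (SE 0.16) and no overlap. Pram1, an adaptor gene of myeloid cells, had 0 reads in both WT libraries and 0, 13, 0 and 39 in KO. Most of its KO reads came from 1 library, and 7.24% of its exon reads were placed uniquely, so no fold is given. The KO libraries with Pram1 reads were replicates 2 and 4, those with the highest neutrophil and monocyte marker sums. The WT libraries, with 0 Pram1 reads, summed to 885 and 919 CPM for these markers, beside 1074 CPM in KO replicate 2. The part of these markers in the result was not tested. Trim10, a gene of the erythroid lineage, was also highest in KO replicate 4, with 100 reads there and between 8 and 23 in the other 5 libraries.

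**Figure D2:**
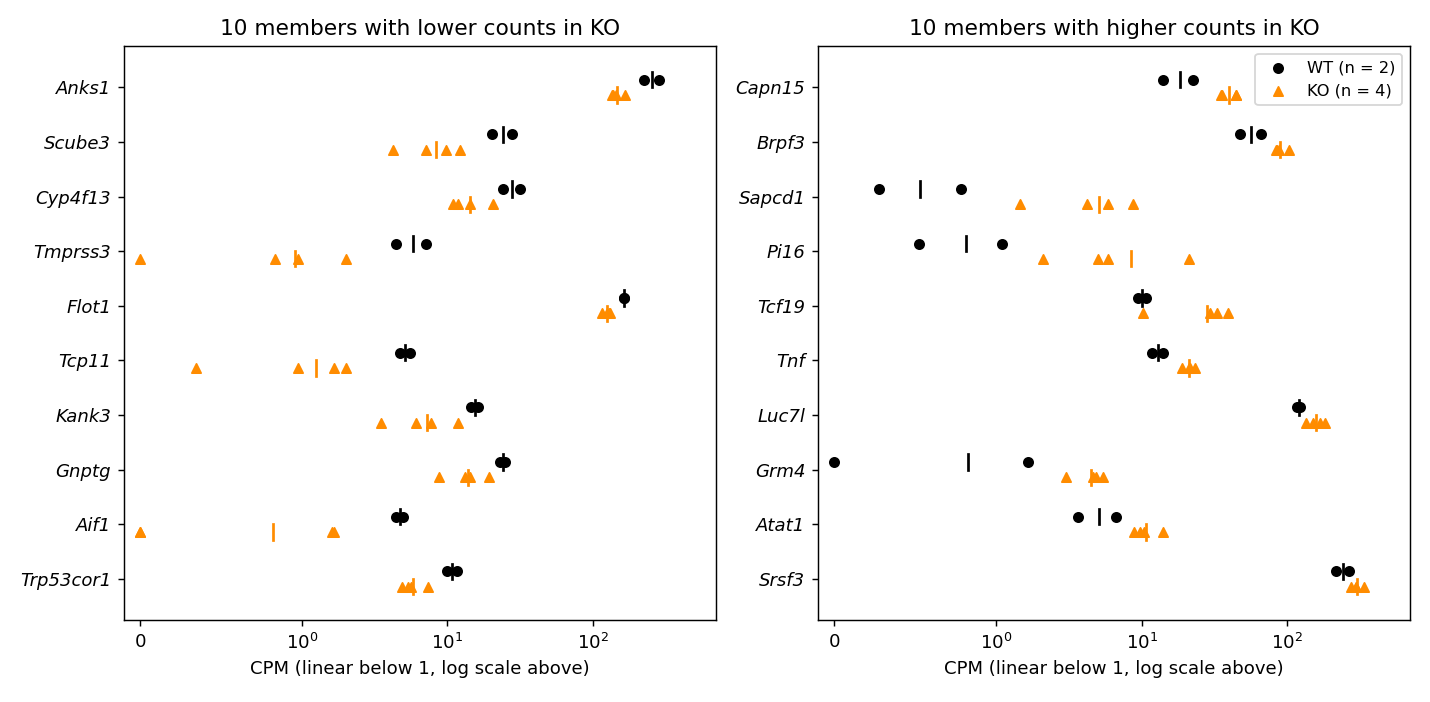
CPM of each library (x axis, linear below 1 and a log scale above) for 10 members lower and 10 higher in KO, with black circles for the 2 WT libraries, orange triangles for the 4 KO libraries and short lines for the group means. For Anks1, Scube3 and Cyp4f13 all 4 KO libraries sit below both WT libraries, for Capn15 and Brpf3 all sit above, and for Tcf19 KO replicate 2 sits with WT.

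Along the interval, genes at an unadjusted p under 0.05 appeared in 10 of 12 bins of 1 Mb, and the share over all genes was 9.90%. The bin from 28 to 29 Mb held 4 of 15 tested genes, with Scube3 and Tcp11 lower and Brpf3 and Stk38 higher in KO. The bin from 29 to 30 Mb held 3 of 14, Srsf3 and Pi16 higher and BC004004 lower. The bin from 35 to 36 Mb held 6 of 36, with Sapcd1, Tnf, Tcf19 and Atat1 higher and Aif1 and Flot1 lower. It also spans the class I genes H2-D1 to H2-Q10, so it is not class III alone, and Tcf19 starts beyond H2-Q10. The bin from 34 to 35 Mb held 0 of 22 and the bin from 30 to 31 Mb 0 of 1. In the bins with 10 or more tested genes, median log2 fold changes stayed between -0.04 and 0.16. Medians were lower in 2 adjacent bins with fewer, -0.18 from 30 to 31 Mb (1 tested) and -0.15 from 31 to 32 Mb (9 tested). From 36 to 37 Mb (7 tested) the median was 0.04. With bins of 2 Mb all 6 held at least 1 such gene, and at an unadjusted p under 0.01 5 of the 12 bins of 1 Mb did.

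**Figure D3:**
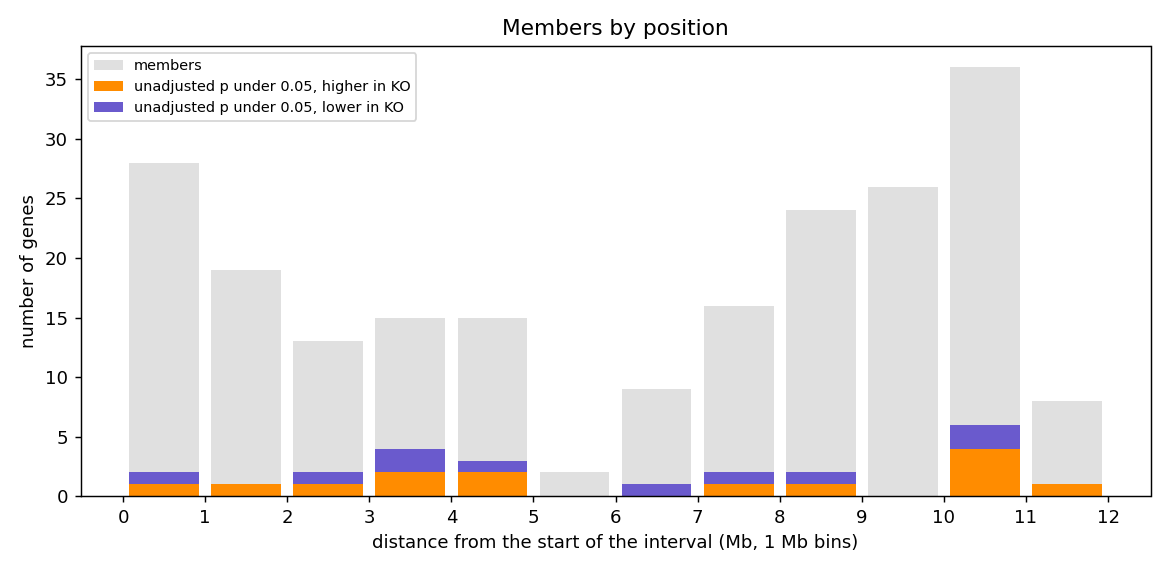
For each 1 Mb bin (x axis, distance from the start of the interval in Mb) grey bars count the members, and the stacked coloured parts count those at an unadjusted p under 0.05, orange for higher in KO and blue for lower. The highest count is 6, in the bin with 36 members, and 2 bins hold none.

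The 67 tested genes with the lowest levels (mean 1.91 to 16.5 CPM) held 10 of the 24 and had a median size of 0.37. The 68 with the highest levels (mean 60.6 to 1653 CPM) held 8 and had a median size of 0.14. The middle 67 held 6, with a median size of 0.19. Over all genes tested, at any level, 9.90% had an unadjusted p under 0.05 and the median size was 0.22. The set of all genes was not split by level. Whether size falls with level there too was thus not tested, and the pattern is not shown to be particular to the members.

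Some genes lie beside chromosome 17 genes that did pass the adjusted threshold in edgeR, which were H2-Ea-ps, H2-Q2, H2-Q10, H2-Bl and Msh5. All of these 5 were left out by name. Of the 14 genes that start within 100 kb of one of them, 2 had an unadjusted p under 0.05, Sapcd1 and Tcf19, against 9.90% of all genes, and the median size was 0.33. Of the other 188 tested genes, 22 did, with a median size of 0.18.

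Sapcd1 lies on the minus strand at chr17:35025959-35028016 and ends 588 bases before the interval of Msh5, a meiotic mismatch repair gene on the same strand. On that strand Sapcd1 is downstream of Msh5. It had 1 and 3 reads in WT and 21, 28, 25 and 3 in KO, or 0.275 and 0.781 CPM against 4.24, 5.84, 8.73 and 1.47 CPM. Msh5 had 6.06 and 6.25 CPM in WT and 58.3, 75.1, 180 and 46.5 CPM in KO. In both genes KO replicate 3 was highest and KO replicate 4 the lowest of the KO libraries. The log2 fold change of Sapcd1 was 3.19 (SE 0.93, edgeR adjusted p = 0.352), and it overlaps Vwa7 on the other strand, whose log2 fold change was 1.31 without passing an unadjusted p of 0.05. Whether reads beyond the end of Msh5 were counted for Sapcd1 was not tested.

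The next neighbours of Msh5 lay nearer to 0. Log2 fold changes were 0.01 for Lsm2, a gene of the U6 RNA-binding ring, and -0.20 for Vars, the valyl-tRNA synthetase gene. They were -0.33 for Clic1, an intracellular chloride channel gene, -0.33 for Ddah2, -0.26 for Abhd16a and -0.07 for Csnk2b, the regulatory subunit of casein kinase 2. Gpank1 was at -1.0 without passing an unadjusted p of 0.05. Near H2-Q10, Tcf19 starts 42.6 kb away and Cchcr1, with a log2 fold change of 0.37, 47.0 kb away.

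By role, 125 of the genes fell in 7 lists chosen from general knowledge with earlier results known, and none of their members passed the adjusted threshold in edgeR. Their counts at an unadjusted p under 0.05 are to be read against 5.67% of all genes higher and 4.23% lower. In the complement and tumour necrosis factor list, 1 of 6 was higher at an unadjusted p under 0.05 (Tnf), 1 lower (Aif1), and the median log2 fold change was -0.13. Ltb, the lymphotoxin beta gene in the same cluster, was at 0.23 (SE 0.18), Lst1 at -0.21 (SE 0.27) and the complement gene C4b at -0.84 (SE 0.63). Of 25 RNA processing and translation genes, 3 were higher (Luc7l, Srsf3 and Sapcd1, the last of which is not known as an RNA factor) and 0 lower, with a median of 0.03. Of 25 transcription and chromatin genes, 2 were higher (Brpf3 and Tcf19) and 0 lower, with a median of -0.01.

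Of 23 kinase and signalling genes tested, 1 was higher (Stk38) and 1 lower (Anks1) at that limit, with a median log2 fold change of 0.04, again beside 5.67% higher and 4.23% lower among all genes. Of 16 ubiquitin and protein quality genes, 2 were higher (Capn15 and Trim39) and 0 lower, with a median of 0.07. Of 21 metabolism, lipid and transport genes, 0 were higher and 2 lower (Gnptg and Flot1), with a median of -0.14. Of 9 cytoskeleton and cell division genes, 1 was higher (Atat1) and 1 lower (Flot1). Their median log2 fold change was 0.31 and 8 of the 9 were above 0, against 6107 of 11969 over all genes. Of 12 zinc finger genes between 32 and 34 Mb, a list added after the values were seen, 1 was higher (Zfp871), with a median of 0.06.

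Of the 68 tested genes with the highest levels, 8 were among the 24, Anks1, Flot1 and Srsf3 included, and the highest of all per length were not. The share at that limit over all genes, at any level, was 9.90%. Per length, the mean RPKM of the 211 genes ranged from 0.0400 to 190 with a median of 2.99, and 38 were above 10. The 2 highest were the non-coding RNA gene 1110038B12Rik at 190 RPKM and Tubb5, a beta-tubulin gene, at 138 RPKM, with log2 fold changes of 0.21 (SE 0.27) and 0.19 (SE 0.20). Pim1, a serine/threonine kinase gene, had a mean of 235 ± 2.75 CPM over the WT libraries (SD, n = 2), against 230 ± 49.7 CPM over the KO libraries (SD, n = 4), and a log2 fold change of -0.03 (SE 0.18). Def6, a guanine exchange factor gene of lymphocytes, was at -0.14, and Clic1, Prrc2a and U2af1 were at -0.33, 0.05 and 0.06. For the chromatin genes, log2 fold changes were 0.15 for Brd2, which reads acetylated histones, and 0.11 for Ehmt2, a histone H3 methyltransferase. Mapk14, the p38 alpha kinase gene, was at 0.15 and Axin1, a scaffold of the beta-catenin destruction complex, at -0.13. Sik1, a salt-inducible kinase gene, had 385 and 308 CPM in WT and 746, 486, 407 and 345 CPM in KO. Its KO replicate 1 was highest and its groups overlapped, with a log2 fold change of 0.52 (SE 0.26).

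Intron reads give another readout from the same libraries, and 138 of the genes could be tested in both. In introns, 0 passed the adjusted threshold in edgeR, against 0.0863% of all genes, and 10 (7.25%) had an unadjusted p under 0.05, against 6.85%. Of the 16 genes with an exon p under 0.05 and an intron test, 11 had the same sign in introns and 1, Stk38, also had an intron p under 0.05. Over all 138 genes the signs matched in 79 (57.2%), against 5645 of 9707 (58.2%) of all genes, and across genes, which are not independent replicates, Pearson's r was 0.14 against 0.38.

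For Anks1 the exon and intron log2 fold changes lay apart, but their difference did not pass the adjusted threshold. Anks1, Capn15 and Scube3 were picked for small exon p-values, and the part of that choice in the contrast was not tested. The WT libraries held 1419 and 1181 of its intron reads and the KO libraries 1597, 2375, 1037 and 593, and the intron log2 fold change was -0.08 against -0.81 in exons. In a joint fit of exon and intron reads with the library as a block, chosen after the results were seen, its exon minus intron difference was -0.70 (SE 0.24, edgeR adjusted p = 0.626). Capn15 was at 0.06 in introns and 1.12 in exons, with a difference of 1.05 (SE 0.37, edgeR adjusted p = 0.635). Scube3 was at 0.36 in introns and -1.56 in exons, with a difference of -1.94 (SE 0.64). Kank3 was at 1.65 in introns and -1.11 in exons. Brpf3 was at 0.55 in introns and 0.66 in exons, and Stk38 at 0.74 and 0.37.

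In that joint fit 0 of the 138 passed the adjusted threshold in edgeR, against 0% of all genes, and 16 (11.6%) had an unadjusted p under 0.05, against 6.86%. The smallest p was that of Rasal3, a Ras GTPase-activating protein gene of blood cells, with a difference of -0.95 (SE 0.29, edgeR adjusted p = 0.470). Its exon log2 fold change was 0.11 and its intron log2 fold change 1.07. Of the 211 genes, 47 overlap another gene on the same strand and 99 on the other strand, and use of strand in the counting is not given in the sources used here, so reads of overlapping genes cannot be told apart.

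**Figure D4:**
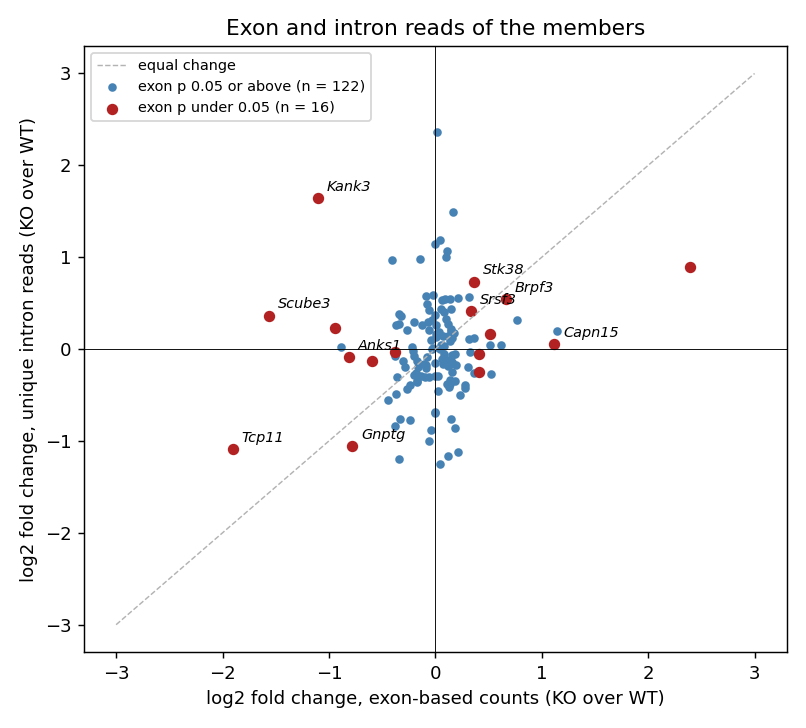
The intron log2 fold change (y axis) of the 138 members tested in both readouts is plotted against the exon log2 fold change (x axis), with red for an exon p under 0.05 and a dashed line where both are equal. Anks1, Scube3 and Capn15, picked for small exon p-values, lie far from 0 in exons and between -0.08 and 0.36 in introns. Stk38 is above 0 in both, and no exon minus intron difference passed the adjusted threshold.

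The genes were then set beside other regions under the same fit. On chromosome 17, from 13 to 25 Mb 10 of 77 genes (13%) had an unadjusted p under 0.05, and from 37 to 49 Mb 11 of 79 (13.9%), against 11.9% of the 202. Within 6 Mb of Elovl6 on chromosome 3 it was 3 of 31 (9.68%). The shares without overlap of WT and KO were 24.7%, 21.5% and 22.6%, against 20.8%, and the median sizes 0.32, 0.26 and 0.32, against 0.19. The sets are not fully alike, since the 15 single genes were left out by name only in the interval. Their median levels also differed, at 15.2, 30.5 and 39.6 CPM against 31.4 CPM. None of these 3 regions outside the interval had a gene past the adjusted threshold in edgeR. Among the 55 tested genes of the same interval that were left out by name, 26 (47.3%) had an unadjusted p under 0.05 and 5 passed the adjusted threshold. These were 15 of 27 H2 genes and 11 of 28 others, but several of these names were set apart with their differences known, so the gap from the 202 is a description of how the genes were chosen. No test of the difference between regions was made.

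**Figure D5:**
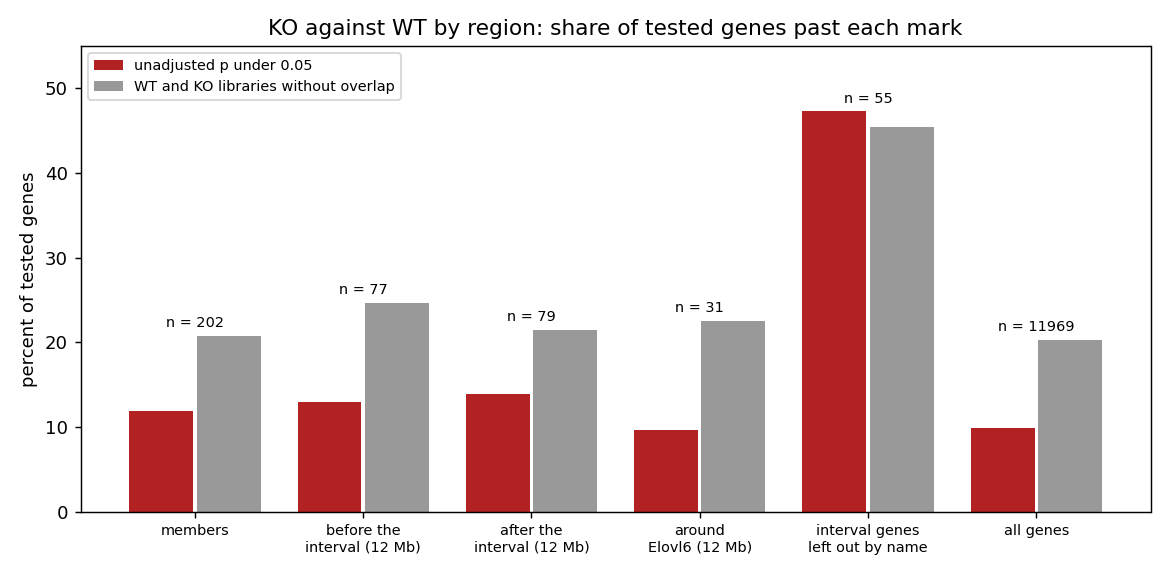
Bars give, for each region, the percent of tested genes at an unadjusted p under 0.05 (red) and the percent for which WT and KO do not overlap (grey), with the number tested above them. The members stand at 11.9% and 20.8%, near the 9.90% and 20.3% of all genes, and the genes left out by name at 47.3% and 45.5%.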

How the data were processed

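A phenol-based reagent was used to extract RNA, and libraries were made with a kit that marks strand, per the labels' protocols. Reads were placed on build mm10, according to the submitters' processing notes. Which aligner, counter, strand setting and annotation were used is not given in the sources used here. 1 table was deposited by the authors, with 51826 genes. Per the file headers, its expression values are read counts per gene, and they equal unique exon reads plus junction reads not placed uniquely in 100% of values. The authors deposited RPKM values, used here to compare levels between genes, and p-values with a signed fold score from a test labelled EDGE in the header. Another 48 columns of per-library values were left aside. Starts were raised by 1 to count from 1. GENCODE M21 holds all 211 gene IDs, 210 with the same symbol and 146 with the same start. Promoters come from RefSeq (GRCm38.p6).

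The test of the expression counts of all genes was that of edgeR 4.0.16, run in R 4.3.3 (filterByExpr, TMM, quasi-likelihood F test, genotype as the only term, 6 libraries), with Benjamini-Hochberg adjustment over the 11969 genes kept. Of the 211 genes, 202 passed that filter on low counts. Intron counts were tested the same way. CPM uses TMM-scaled library sizes, and an SE is the size of the log2 fold change over the square root of F. The alternatives were DESeq2 1.42.0, limma-voom 3.58.1, other size factors, filters and read classes, and leaving out libraries. An exact two-sided test of 2 against 4 libraries could not reach significance, so overlap is given as a count. The scripts were tested on simulated counts.

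The members and lists were chosen with earlier results of these data known. The genes named are those with the 10 smallest unadjusted p-values in each direction, those within 100 kb of a gene past the threshold on the chromosome, the highest by level in each 1 Mb bin, and the leading and highest gene of each list, predicted and clone names excepted.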

Additional observations from a re-analysis of the deposited data

How the results depend on the processing

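Of the 15 alternatives, those that kept both WT libraries had 0 genes past the adjusted threshold, except the DESeq2 test and the fit without a filter. The DESeq2 test had 2. Without a filter on low counts there were 6 of 211 (Anks1, Capn15, Pi16, Pram1, Scube3 and Tcf19). Beside these stood 1.69% of the 18189 genes with any read, which are not a like set. The 24 genes at an unadjusted p under 0.05 became 14 (7.07%, against 6.60% of all genes) with the replicate block. That is a fit of the 4 libraries numbered 1 and 2, which therefore also leaves out KO replicates 3 and 4. Without these and with no block there were 21 (10.6%, against 9.39%). At a limit of 0.01, an alternative chosen after seeing the data, there were 7 (3.47%, against 2.52%). Leaving out single KO libraries gave 14 to 28, or 7.07% to 14.1%, against 8.07% to 10.9% of all genes. The median log2 fold change of 0.0060 was -0.048 without KO replicates 3 and 4, -0.052 with the replicate block on the same 4 libraries and -0.011 to 0.053 when single libraries were left out. The median size of 0.19 was 0.17 with a mean of at least 5 CPM, 0.25 without KO replicates 3 and 4, 0.25 with that block and 0.19 to 0.27 when single libraries were left out. The 10 bins of 1 Mb became 6 bins of 2 Mb, or 5 at the limit of 0.01. The cause was not tested.

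Of 43 named genes tested, 34 kept their sign under every alternative that gave them a value (10 for Vwa7, 14 or 15 for the others) and 9 did not. The log2 fold change of Lsm2 was -0.089 with limma-voom. When single libraries were left out, log2 fold changes ranged from -0.13 to 0.13 for Lsm2, -0.26 to 0.15 for Csnk2b, -1.71 to 0.50 for Gpank1, -0.27 to 0.029 for Axin1, -0.22 to 0.16 for Nudt3, -0.38 to 0.055 for Zfand3, -0.024 to 0.32 for Hnrnpm, -0.012 to 0.35 for Tubb5 and -0.14 to 0.27 for Prrc2a. WT and KO libraries share only a number, since the labels give no pairing and the deviations of WT 1 and KO 1 had a correlation of -0.094 across genes. With 2 WT libraries the spread within WT rests on 1 difference, and counts in KO replicates 3 and 4 limit genes with few reads.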
